A study of Rattus norvegicus with 12 samples.

Results

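Unannotated multi-exon loci are stretches of the rat genome from which spliced RNA was assembled where the gene annotation used holds no transcript. Each locus here is a group of overlapping transcripts on 1 strand that share a locus identifier in the transcript files of the series. A locus was taken as a member when every one of its transcripts was assembled from reads rather than annotated and at least 1 had 2 or more exons. Its level, in TPM summed over its transcripts, also had to average 1 or more over the 12 libraries. TPM is the share of a library's transcripts, corrected for their length. Which libraries the models were assembled from is not stated. Of the 40076 loci in the files, 8079 held no annotated transcript, 2119 of these had a transcript of 2 or more exons, and 1823 met all criteria. The members were thus chosen by their mean TPM, so levels are given as a description. The 3 members just inside the threshold averaged 1.01 TPM each (MSTRG.19909, MSTRG.9280 and MSTRG.2601), and the 3 loci just outside it averaged 0.998 to 0.999 TPM (MSTRG.20327, MSTRG.14696 and MSTRG.16753).

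The libraries are polyA RNA from the periaqueductal grey, a midbrain region known for its part in pain control, of male Sprague Dawley rats. The sire of 6 animals had been given saline (saline-sired) and the sire of the other 6 morphine (morphine-sired), and the offspring carry no other named treatment or allele. Age, the dose and the schedule of the sires, and any sharing of a sire or litter within a group are not stated by the labels. The p-values therefore measure the spread between these libraries, which may be technical. Total sequence behind the deposited values was 4.39 to 6.03 gigabases per library. The neuronal markers of a fixed list summed to 2496 to 2993 TPM and the oligodendrocyte markers to 9133 to 18928 TPM, and all 3 male markers were found. The libraries differed most in markers of neighbouring structures: serotonergic markers summed to 18.4 to 1112 TPM and choroid plexus markers to 11.5 to 1794 TPM. In such bulk tissue, fewer cells of a type and less RNA per cell cannot be told apart.

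Transcript assembly joins overlapping reads into models without using prior gene models, so the set it adds can hold long noncoding RNAs, antisense RNAs, host RNAs of small nucleolar RNAs (snoRNAs) and microRNAs, and pieces of coding genes that an older annotation lacks. Long noncoding RNAs are often transcribed head to head with a coding gene or from its opposite strand. Host RNAs are spliced, and the small RNA is cut from an intron. The direction of a spliced model is read from its splice sites where the library itself does not keep the strand.

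The annotation placed 8 miRNA genes inside 7 of the members, on the same strand. A microRNA pairs with target RNAs mainly through its seed (bases 2 to 8), so the sequences show which targets such a host could bear on, although no small RNA was measured in these polyA libraries. RefSeq (GRCr8) held 6 of these genes and a mature sequence for 5. They are printed 5′ to 3′ with the seed in capitals, and the 8 mature sequences have 8 different seeds.
rno-miR-135b-5p: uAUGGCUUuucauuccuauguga
rno-miR-135b-3p: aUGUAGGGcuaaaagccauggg
rno-miR-582-5p: uACAGUUGuucaaccaguuacu
rno-miR-582-3p: aACCUGUUgaacaacugaaccc
rno-miR-873-5p: gCAGGAACuugugagucuccu
rno-miR-873-3p: gAGACUGAcaaguucccggga
rno-miR-297: aUGUAUGUgugcauguaugcaug
rno-miR-1949: uAUACCAGgaugucagcauaguu

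Coordinates here and throughout are on Rnor_6.0. The host with the highest level was MSTRG.11256, on the plus strand at chr18:28351670-28356673 with up to 4 exons, which holds Mir1949. The same locus also holds small RNAs of Rfam family RF00090, and the one at 28353093-28353204 overlaps the Mir1949 hairpin at 28353149-28353245. MSTRG.11256 was listed at 20.96 to 26.7 TPM in the saline-sired libraries (median 24.9) and at 15.7 to 25.6 TPM in the morphine-sired libraries (median 21.8), so the groups overlapped. MSTRG.4958, on the minus strand at chr10:101554545-101711392, holds Mir297 and was listed at 6.85 to 9.42 TPM (median 8.20) and 6.23 to 10.1 TPM (median 8.17). MSTRG.18797, on the minus strand, spans 1289809 bp at chr5:51678268-52968076 and holds both Mir873 and Mir876. Its levels were 5.27 to 8.33 TPM (median 6.27) in saline-sired and 3.60 to 7.28 TPM (median 6.26) in morphine-sired libraries. The other hosts were lower: MSTRG.12884, which holds Mir582 in an intron of the phosphodiesterase gene Pde4d, averaged 2.39 TPM, MSTRG.7020 with Mir135b 2.27 TPM, MSTRG.1457 with rno-mir-344a-1 2.63 TPM and MSTRG.1563 with Mir7a2 1.601 TPM. Groups overlapped at every one of the 7 hosts.

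Most members were low, short and built of few exons. The median level was 3.04 TPM (quartiles 1.90 and 6.58), with 902 members from 1 to 3 TPM, 597 from 3 to 10 TPM and 324 at 10 TPM or more. The longest spliced transcript of a member had a median length of 878 nt and ranged from 201 to 12719 nt. In 1171 members (64.2%) no transcript had more than 2 exons, 341 reached 3 exons, 283 reached 4 to 9 and 28 had 10 or more. A single transcript made up 1259 members, and the strands were nearly even at 918 plus and 905 minus. The 4576 single-exon unannotated loci at the same minimum level had a median of 1.94 TPM and 611 nt, and the 15014 loci with an annotated transcript 18.6 TPM and 2754 nt. The longest transcripts belonged to MSTRG.9159 (12719 nt, 2 exons, starting 92 bp from Pinx1), MSTRG.10631 (10661 nt), MSTRG.8719 (10495 nt) and MSTRG.13605 (10396 nt, 20 exons).

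Members took 2.46% ± 0.102 (SD, n = 12) of the TPM of a library. The share was 2.35 to 2.51% in saline-sired (median 2.47%) and 2.23 to 2.59% in morphine-sired libraries (median 2.49%), and the 12 members with the highest means alone took 0.825 to 1.10%. Between 1494 and 1646 members reached 1 TPM in a library, and 1487 were above 0 in all 12.

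**Figure D1:**
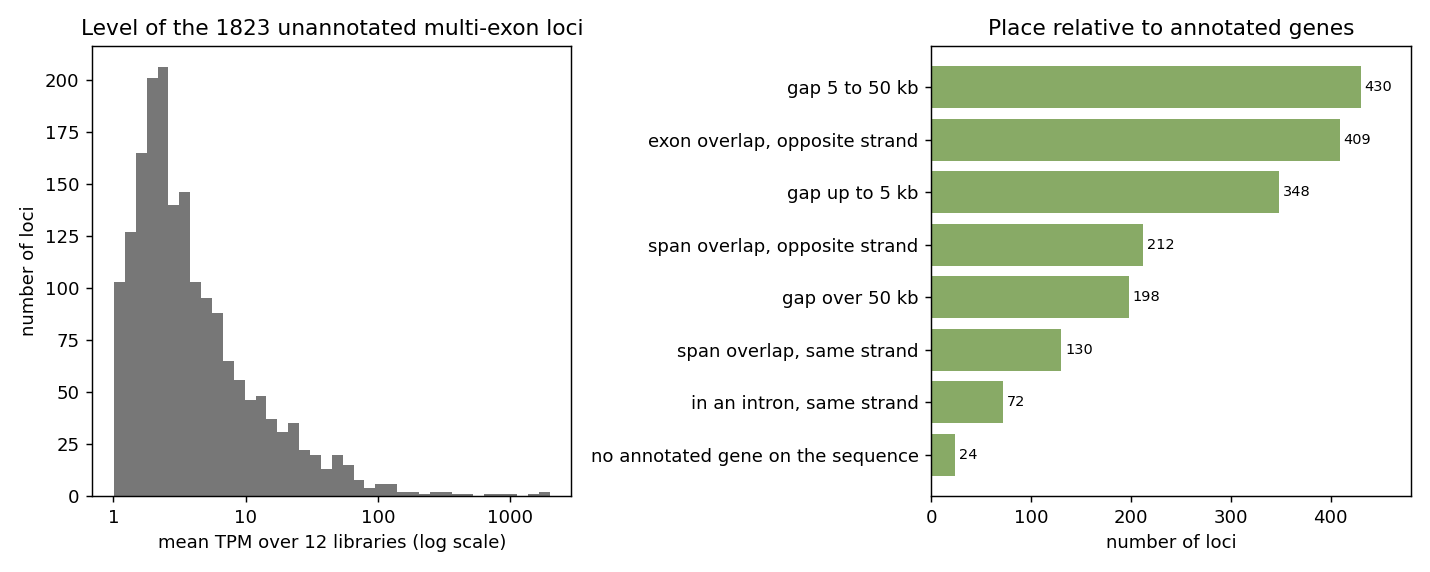
Left: number of unannotated multi-exon loci by mean TPM over 12 libraries, on a log axis. Right: number of these loci by place relative to the annotated transcripts of the same files; 430 lie 5 to 50 kb from the nearest annotated gene and 409 share exon bases with one on the opposite strand.

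The level was concentrated in few loci: 29 members averaged 100 TPM or more. The highest was MSTRG.14898, a 2-exon locus of 1082 nt on the plus strand at chr20:19484419-19485846, 5094 bp from Fam13c. It was listed at 1705 to 2240 TPM in saline-sired (median 2035) and 1758 to 2145 TPM in morphine-sired libraries (median 1951), while Fam13c itself was at 25.9 to 37.1 TPM. Next was MSTRG.18556, at chr5:6373846-6374669 on the minus strand, with 1545 to 2066 TPM (median 1711) and 1514 to 1862 TPM (median 1642). All 12 libraries stood close together at both loci, and the groups overlapped.

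MSTRG.23137, with 4 transcripts at chr8:181059-182331 and 225670 bp from the nearest annotated gene, Gucy1a2, was uneven. It was listed at 63.8 TPM in saline-sired 3 and 35.7 TPM in morphine-sired 2. The other 10 libraries ranged from 1342 to 2976 TPM, so 1 library of each group was far below the rest.

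Several of the 12 highest lay across from abundant genes. MSTRG.3999 (chr10:48880934-48881851, 3 exons) overlaps exons of the ubiquitin gene Ubb on the other strand and was at 793 to 1062 TPM (median 918) and 859 to 1192 TPM (median 954). MSTRG.23015 shares all of its 1072 exon bases with the locus of the tubulin genes Tuba1a and Tuba1b and was the most variable of these, at 43.4 to 684 TPM (median 203) and 183 to 794 TPM (median 317). MSTRG.15992 shares 6291 of 6527 exon bases with the locus of Slc1a2, the main glutamate transporter of astrocytes, and was at 313 to 464 TPM (median 345) and 305 to 365 TPM (median 344).

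A further 5 of the 12 were steadier. MSTRG.21629 (chr7:10929443-11013376, span over Tle6) was at 747 to 945 TPM and MSTRG.25481 (chr9:100115269-100171923, 14 transcripts, span over Aqp12a) at 596 to 714 TPM over all libraries. MSTRG.16878, whose span covers Nfatc2, was at 335 to 448 TPM, MSTRG.13688 at 223 to 277 TPM and MSTRG.11350, opposite the protocadherin gene Pcdhgc3, at 204 to 288 TPM.

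**Figure D2:**
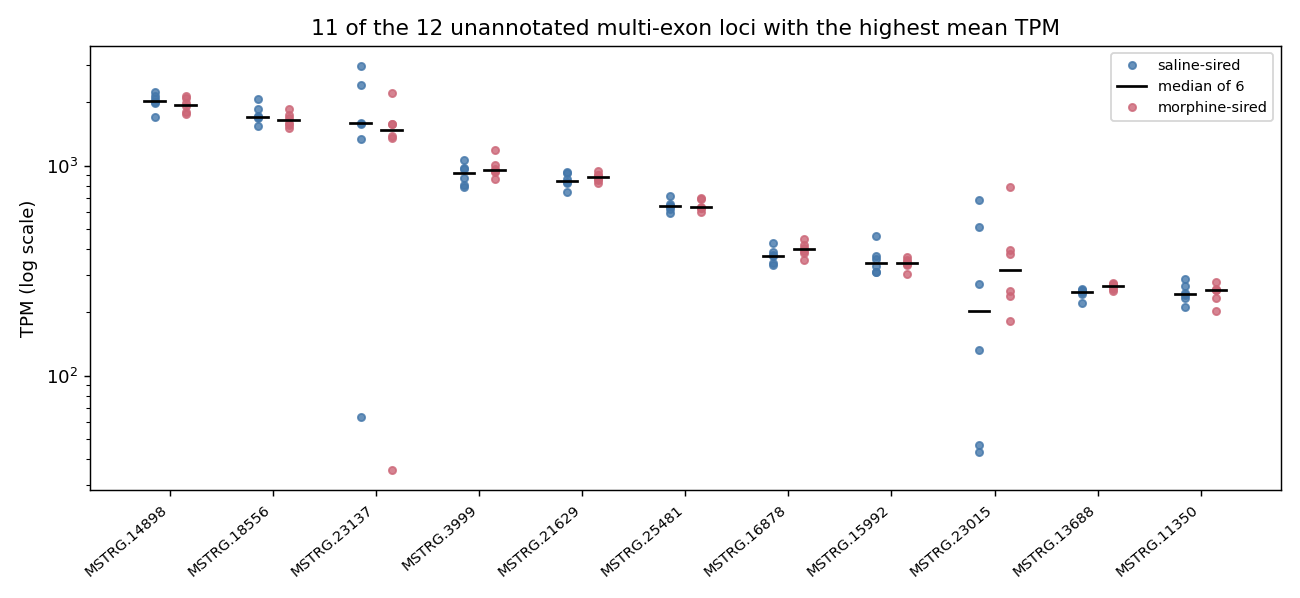
TPM (log axis) of 11 of the 12 unannotated multi-exon loci with the highest mean, 1 point per library (6 saline-sired, 6 morphine-sired), with the median of each group as a line. MSTRG.23137 has 1 library of each group under 100 TPM, and MSTRG.23015 ranges from 43.4 to 794 TPM; in every locus shown the groups overlap.

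Members were found on all assembled chromosomes other than Y, which had 0. Chromosome 1 held 209, chromosome 7 held 137 and chromosome 10 held 121, and 35 lay on unplaced sequences. Per 100 loci with an annotated transcript at the same minimum level, there were 12.1 members over all sequences, 18.0 on chromosome 19, 17.3 on chromosome 9 and 17.0 on chromosome 15, against 8.46 on chromosome 8. The X chromosome held 52 members, or 10.0 per 100. The mitochondrial genome held 4 members, all on the minus strand. MSTRG.25853 lies across from ND3 and MSTRG.25858 across from ND4, which encode subunits of respiratory complex I. MSTRG.25852 was at 0 TPM in 10 libraries and at 28.5 TPM in saline-sired 3. MSTRG.25853 was at 0 TPM in 9 libraries and reached 11.7 TPM in saline-sired 6. MSTRG.25836 was at 0 TPM in 2 libraries, and MSTRG.25858 was above 0 in all. Whether these models are spliced RNA was not tested.

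Relative to annotated genes, most members were close. Exon bases were shared with an annotated transcript on the opposite strand by 409 members, and a further 212 overlapped the span of a gene on that strand without sharing exon bases. On the same strand, 72 lay in an intron and 130 overlapped a gene's span in another way. No member shared exon bases with an annotated transcript on its own strand, which follows from how loci are formed: such a transcript would have joined the annotated locus. The gap to the nearest annotated gene was up to 5 kb for 348 members, 5 to 50 kb for 430 and over 50 kb for 198, and 24 lay on sequences without an annotated gene. Within 5 kb on the same strand, or overlapping, there were 406 members: 202 overlapped a gene's span, 119 lay downstream and 85 upstream of the gene. Median level differed little by place, from 2.62 TPM for members in introns to 4.35 TPM for those with other overlaps on the same strand, and median length was lowest, 520 nt, for those with exon bases on the opposite strand.

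The members farthest from any annotated gene on an assembled chromosome were MSTRG.7124 on chromosome 13, with a gap of 743600 bp, MSTRG.6872 on chromosome 13 with 624677 bp and MSTRG.12371 on chromosome 19, 499153 bp from Maf. MSTRG.8151 on chromosome 14 followed with 396097 bp and MSTRG.1385 on chromosome 1 with 375412 bp. Of these, MSTRG.6872 was the highest, at 7.33 to 13.3 TPM in saline-sired (median 10.7) and 7.57 to 15.02 TPM in morphine-sired libraries (median 9.51). The gaps are to the annotation of the files only. MSTRG.12371 lies between Clec3a and Maf, where RefSeq lists Wwox. RefSeq also lists 17 genes between the neighbours of MSTRG.7124, 44 for MSTRG.6872, among them the coding gene Cntnap5a, and 47 for MSTRG.1385.

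A total of 179 members began within 1 kb of the start of an annotated gene that runs the other way. MSTRG.1679, with 5 exons, started 180 bp from Vbp1, a prefoldin subunit, and was at 54.0 to 102 TPM beside 97.2 to 155 TPM for Vbp1. MSTRG.13503, with 9 exons, started 18 bp from Shox2, a homeobox gene, and its level was 41.0 to 66.9 TPM while Shox2 ranged from 1.33 to 50.9 TPM. MSTRG.20835 started 1 bp from Mgat2, an enzyme of N-glycan synthesis, and was at 21.3 to 73.1 TPM, beside 20.4 to 25.3 TPM for Mgat2. MSTRG.21211, 3 bp from Cpsf2, and MSTRG.24205, 95 bp from Twf2, were at 44.3 to 65.0 and 46.2 to 69.6 TPM. Between the neighbours of MSTRG.13503 RefSeq lists the coding gene Rsrc1, and between those of MSTRG.21211 the coding gene Ndufb1. It lists no further gene between the neighbours of MSTRG.20835 and of MSTRG.24205. Whether any of these members is noncoding was not tested.

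RefSeq's gene order, from a newer assembly, gave a second view of what lies at these places. For 1295 members both annotated neighbours could be matched to RefSeq genes in the same order. RefSeq listed no further gene between the pair for 183 of them and exactly 1 for 259, which was a coding gene in 60 cases and a lncRNA gene in 154. An entry listed as coding under a symbol of its own lay between the neighbours for 474 of the 1295, and for 20 of the 20 among these that had 10 or more exons. Such entries include some with symbols in the style of pseudogenes. For MSTRG.13078, with 21 exons, the only one was Rps10-ps2. How many of the 474 rest on such symbols was not counted. Order alone does not show that the member is that gene.

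Among the members with many exons, MSTRG.13399 had 36 exons and 7368 nt on chr2:145011310-145412464 (minus strand) and MSTRG.13397 had 22 exons beside it. Both lie where RefSeq lists Nbea, a large scaffold protein of neuronal membrane traffic. MSTRG.13399 was at 40.7 to 50.4 TPM (median 47.5) in saline-sired and 38.2 to 51.4 TPM (median 44.8) in morphine-sired libraries, and MSTRG.13397 at 19.3 to 31.7 TPM over all 12. MSTRG.6216, with 32 exons at chr12:16959542-16974892, lies between Mafk and Micall2, and the only RefSeq gene there is Ints1, a subunit of the Integrator complex. It was at 40.1 to 50.8 TPM (median 45.0) and 44.3 to 52.9 TPM (median 47.1).

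Other members of 10 or more exons lay where RefSeq lists further known genes. MSTRG.23472 (24 exons, 35.9 to 91.2 TPM) fell in the interval that holds Sorl1, a sorting receptor of neurons. MSTRG.22743 (19 exons, 20.7 to 27.5 TPM) fell in that of the acetyltransferase Ep300, and MSTRG.22304 (19 exons, 20.7 to 26.7 TPM) in that of Vps13b, a Golgi protein. MSTRG.10060 (11 exons, 65.5 to 74.4 TPM), in the interval of the lysosomal enzyme gene Hgsnat, was among the 4 members with the smallest spread, with an SD of log2(TPM + 1) of 0.0539 over the 12 libraries. MSTRG.4898 (10 exons, 9.99 to 18.3 TPM) fell in an interval that holds Pecam1, an adhesion molecule of endothelial cells, and also the coding gene Milr1. Pecam1 is the 1 gene of the 3 endothelial markers that had no symbol in the files. MSTRG.16144 (3 exons, 7718 nt, 71.1 to 103 TPM) lies between Chp1 and Oip5, where the only RefSeq gene is the long noncoding RNA Oip5-as1. The 41-exon MSTRG.19883 (3.59 to 5.14 TPM), the member with the most exons, had no neighbour pair in RefSeq order.

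Of the 18 members with at least 14 exons, 5 had their lowest level in morphine-sired 2 and their highest in morphine-sired 3: MSTRG.13605, described above for its length, and 4 more. The bound of 14 exons was chosen after the values were seen. None of the members with 10 to 12 exons had this order, and its share over all members and loci was not counted. MSTRG.25478 (19 exons) and MSTRG.25479 (14 exons) lie between Mab21l4 and Sned1, where the only RefSeq gene is Crocc2, a relative of the ciliary rootlet protein rootletin. MSTRG.2050 has 40 exons on chromosome 1, and MSTRG.13078 has 21 exons at 108877 bp from Dnah5, a ciliary dynein gene. MSTRG.13605 lies between Plrg1 and Sfrp2, where the coding gene that RefSeq lists is Dchs2. MSTRG.25478 was at 0.0389 TPM in morphine-sired 2, 14.9 TPM in morphine-sired 3 and 3.42 to 7.95 TPM in the other 10 libraries. MSTRG.25479 was at 0.319, 17.9 and 3.71 to 10.3 TPM, MSTRG.2050 at 0.115, 9.47 and 1.61 to 5.35 TPM, and MSTRG.13078 at 2.64, 10.6 and 3.36 to 8.85 TPM in the same order. The ependymal markers Ccdc153, Tmem212 and Dnah11, genes of the ciliated cells that line the aqueduct, summed to 3.35 TPM in morphine-sired 2, 145 TPM in morphine-sired 3 and 28.1 to 113 TPM in the others, and no marker of the 3 was at 0. The other ependymal marker of the list, Foxj1, had no symbol in the files. Morphine-sired 2 also had the highest sum of choroid plexus markers, 1794 TPM. The part of these cell types in the 5 loci's levels was not tested.

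Small nucleolar and other small RNAs also lay inside members, and position alone does not show that they are cut from the member's RNA. With the miRNAs, the annotation lists 81 small RNAs inside members on the same strand, in 59 members, and all 81 lie in introns, which again follows from how loci are formed. MSTRG.14218 (3 exons, chr2:227718719-227719572), between Prss12 and Ndst3, holds an snoRNA of Rfam family RF00399 and was at 93.2 to 165 TPM. In human, the snoRNA host gene SNHG8 lies beside PRSS12. MSTRG.11225 (chr18:26568694-26569705), 942 bp from Epb41l4a, holds RF00396 and was at 89.7 to 124 TPM. MSTRG.16846 (5 exons, 45.0 to 59.2 TPM), across from Znfx1, holds 3 copies of RF00581, the family of SNORD12; in human, the host of these snoRNAs is ZFAS1, which starts beside ZNFX1. MSTRG.18570 (56.3 to 70.5 TPM) holds RF00439 and MSTRG.15294 (48.4 to 75.5 TPM) holds RF00416 and RF00560. MSTRG.3979 (5 exons, 48.2 to 79.4 TPM) holds RF00277 and RF00571. Over the 12 libraries the SD of log2(TPM + 1) of these 6 members ran from 0.1004 for MSTRG.18570 to 0.244 for MSTRG.3979. MSTRG.77, the third highest of the 59, was less even, at 33.2 to 227 TPM (SD 0.694). So was MSTRG.78, which lies on the other strand of the same stretch, at 25.4 to 167 TPM (SD 0.680). Both hold RF00002 and RF01518, share nearly all their exon bases and were highest in morphine-sired 4. The median SD of the 59 members with a small RNA was 0.251.

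Imprinted genes are expressed from the copy of 1 parent. A list of 43 genes known to be imprinted in mammals, or lying in imprinted clusters, was searched, of which 35 have a symbol in the files, and 20 members overlapped one or had one as nearest or flanking annotated gene. Their median level was 2.68 TPM, against 3.04 TPM for all members: 13 averaged 1.04 to 3.54 TPM and 7 averaged 10 TPM or more, and these 7 are described. The highest was MSTRG.17427, in an intron of Copg2 beside Mest at chr4:58078886-58080041 on the minus strand, at 146 to 226 TPM. MSTRG.17426, on the plus strand from 1 bp before it and sharing 210 exon bases with it, was at 35.5 to 212 TPM; Mest itself was at 22.6 to 29.1 TPM and Copg2 at 85.8 to 104 TPM. MSTRG.16928 lies in an intron of Gnas at chr3:172418005-172419462 and was at 79.7 to 196 TPM.

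The other 4 of the 7 were lower. MSTRG.22483 (41.6 to 101 TPM) lies across from Trappc9, which in mouse contains the imprinted RNA Peg13. MSTRG.21332 (25.9 to 71.0 TPM, minus strand) lies between Dlk1 and Dio3, an interval in which RefSeq lists Meg3 and Rtl1. MSTRG.17271 (chr4:29795348-29803492) lies between Sgce and Ppp1r9a, where RefSeq lists Peg10, and was at 17.5 to 76.8 TPM with saline-sired 2 the highest. MSTRG.1435 (10 exons, 24.6 to 32.0 TPM), between Ube3a and Ndn, holds 6 snoRNAs of family RF00108, that of SNORD116. None of the 20 passed the limma test for sire treatment at an adjusted p of 0.05, as 0% of all 24540 genes and loci tested did. An unadjusted p under 0.05 was found for 2 of the 20 (10%), against 3.22% of all tested and 4.66% of members (MSTRG.1374 with 0.0179 and MSTRG.21316 with 0.0363). Neither overlaps a gene of the list. MSTRG.1374 lies between Ube3a and Ndn, an interval where RefSeq lists 47 further genes, and is 29448 bp from its nearest annotated gene, AABR07003650.1. MSTRG.21316 overlaps the span of Ppp2r5c on the opposite strand and has Dio3 only as a flanking gene.

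Sharing of exon bases between strands was common. Of the members, 697 shared exon bases with another locus, in 748 pairs, all on opposite strands. The other locus was annotated in 579 pairs, another member in 96 and another unannotated locus in 73. At least 50% of the exon bases were shared by 397 members, and all of them by 135. The labels do not say whether the libraries kept the strand, so the unspliced reads of such a pair cannot be told apart.

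In some of these pairs the split between strands differed from library to library while the sum moved little. MSTRG.5608 (chr11:65376023-65399737, plus strand) shares 751 of its 1154 exon bases with MSTRG.5609. It was at 38.7 and 38.6 TPM in saline-sired 2 and 4, at 37.1, 33.4, 36.6 and 31.1 TPM in morphine-sired 2, 3, 5 and 6, and at no more than 0.214 TPM in the other 6. MSTRG.5609 was at 35.3 to 50.1 TPM in those 6 libraries and at 0 to 3.77 TPM in the first 6. The sum of both was 31.1 to 50.1 TPM in all 12. The SD of log2(TPM + 1) was 2.68 for MSTRG.5608, 2.72 for its partner and 0.188 for the sum.

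MSTRG.17237 on chromosome 4 behaved in the same way with MSTRG.17238. It was at 0.0631 to 0.111 TPM in saline-sired 1, 2 and 6, where MSTRG.17238 was at 10.7 to 12.8 TPM, and at 9.02 to 11.1 TPM in the other 9, where MSTRG.17238 was at 0.0351 to 0.269 TPM. MSTRG.15989, the member with the largest spread (SD 3.08), was listed at 0 in 5 libraries and reached 138 TPM in morphine-sired 1, and its sum with MSTRG.15990 had an SD of 0.448. MSTRG.21246 and MSTRG.21247 have the same 7025 exon bases on opposite strands: both were at 28.4 TPM in saline-sired 2 and at 31.9 TPM in saline-sired 3, while saline-sired 1 had 0 and 45.5 TPM and saline-sired 6 had 58.4 and 0 TPM. Their sum was less even than that of MSTRG.5608 and MSTRG.5609, at 33.7 to 86.1 TPM over the 12 libraries (SD 0.428).

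Across from an abundant locus, 3 of the 6 members with the largest spread were near 0 in some libraries and high in others. MSTRG.11942 (chr19:22402694-22403006) has all of its 266 exon bases inside those of Itfg1. It was at 28.6 to 41.8 TPM in 7 libraries and at 0 to 1.01 TPM in the other 5, with Itfg1 at 160 to 193 TPM in all. MSTRG.1098 was listed at 0 in 7 libraries and at 34.9 to 102 TPM in 5. The locus of Cox7a1, a subunit of cytochrome c oxidase, shares 588 of its 604 exon bases from the other strand and was at 62.1 TPM or more in 11 libraries and at 8.70 TPM in morphine-sired 4, the library where MSTRG.1098 was highest. MSTRG.14896 was listed at 0 in saline-sired 3 and morphine-sired 6 and at 130 to 313 TPM in the other 10, across from MSTRG.14898. MSTRG.25836, also among those 6, on the mitochondrial genome, reached 292 TPM in saline-sired 2 and was at 0 to 34.4 TPM in the others.

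**Figure D3:**
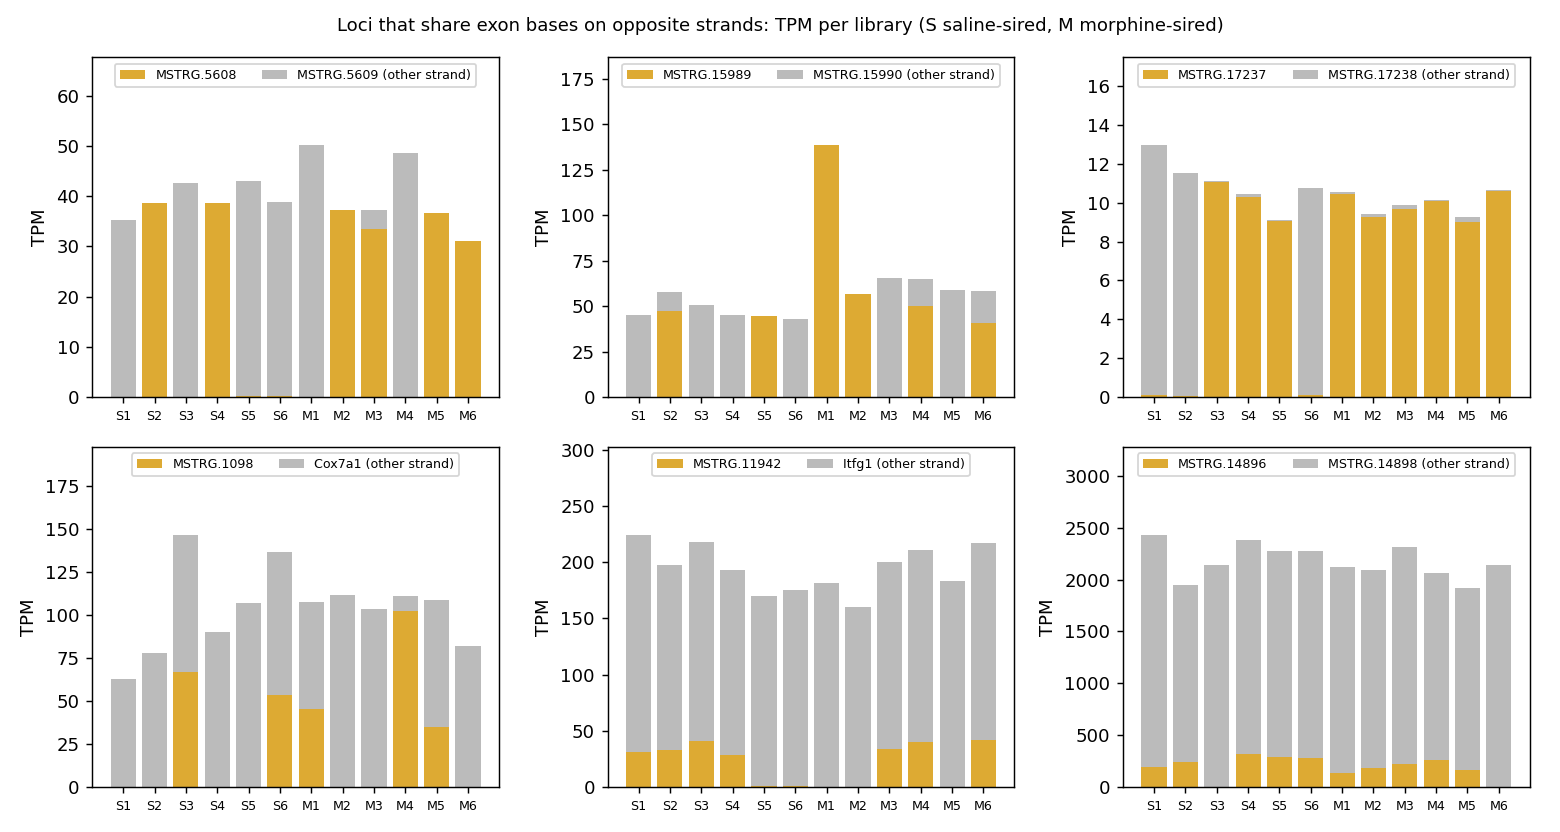
TPM in each of 12 libraries (S saline-sired, M morphine-sired) of 6 members (orange) stacked on the locus that shares their exon bases on the opposite strand (grey). In the 3 upper pairs 1 of the 2 loci holds most of the sum in most libraries; in the lower pairs the partner holds most of it in every library except M4 for MSTRG.1098.

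In all, 117 members had an SD of log2(TPM + 1) of at least 1, and 88 of them shared at least 50% of their exon bases with a locus on the other strand. For 73 of these 88, adding the partner brought the SD under 50% of its value. Pearson r between member and partner over the libraries was under -0.5 for 15 of the 88 and over 0.5 for 8. Over the 397 members that shared at least 50%, the median SD was 0.608 for the member and 0.228 for the sum, while the 1126 members that shared none had a median SD of 0.350. The difference in spread held in each level class: median SDs were 0.668 and 0.428 from 1 to 3 TPM, 0.458 and 0.308 from 3 to 10 TPM, and 0.451 and 0.206 at 10 TPM or more. These are descriptions, since pairs share reads and a sum with an abundant partner varies less by construction.

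**Figure D4:**
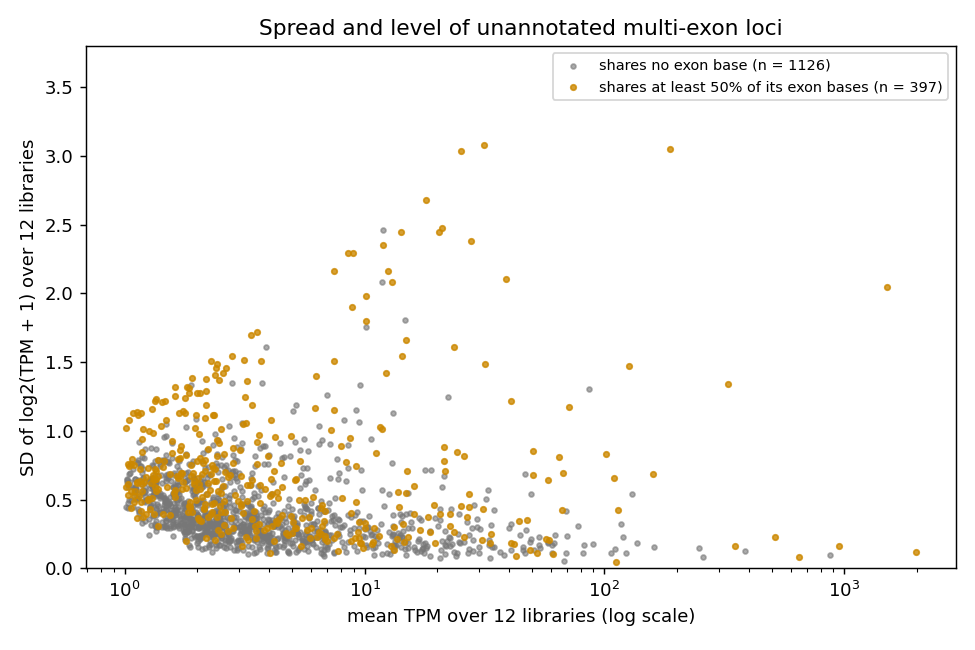
SD of log2(TPM + 1) over 12 libraries against mean TPM (log axis) for 1126 unannotated multi-exon loci that share no exon base with another locus (grey) and 397 that share at least 50% (orange); the loci that share less are not drawn. Most of the loci with an SD over 1 are orange.

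Over all 1823 members the median SD of log2(TPM + 1) was 0.379, and 0.381 within groups. It was 0.475 from 1 to 3 TPM, 0.317 from 3 to 10 TPM and 0.244 at 10 TPM or more. Annotated loci had 0.292, 0.219 and 0.142 in the same classes and single-exon unannotated loci 0.426, 0.264 and 0.198. A value of 0 in at least 1 library was listed for 336 members (18.4%), against 10.5% of single-exon unannotated loci and 1.21% of annotated loci. From 0 in 1 library to 10 TPM or more in another went 58 members, of which 44 shared at least 50% of their exon bases with the other strand. The smallest spread was that of MSTRG.5287 (SD 0.0456), at 108 to 118 TPM in every library, followed by MSTRG.10060, MSTRG.21681 across from the antizyme gene Oaz1 (225 to 251 TPM) and MSTRG.20369 beside Birc6 (15 exons, 30.2 to 37.6 TPM).

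The comparison the study was designed for asks whether RNA differs between offspring of morphine-treated and saline-treated sires. By limma on log2(TPM + 1), adjusted over 24540 genes and loci with a mean of at least 0.5 TPM, 0 of 1823 members passed an adjusted p of 0.05, and 0% of all those tested did. The smallest adjusted p of a member was 0.9998. Without adjustment, 85 members (4.66%) had a p under 0.05, against 3.22% of all tested. Of the 85, 54 (2.96%, against 1.5%) were higher in morphine-sired and 31 (1.70%, against 1.72%) lower. The median log2 difference was -0.0015 for members and -0.0022 for all tested. Groups did not overlap for 1 member (0.0549%), against 0.0896% of all tested. With 6 libraries a group, 95% intervals on the log2 scale were 0.912 wide in the median for members and 0.608 for all tested. They lay between -1 and 1 on log2(TPM + 1) for 1429 members, a scale on which low loci change by less than their TPM does.

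The 10 members with the smallest unadjusted p are described here, and each had an adjusted p of 0.9998 by limma. MSTRG.19035 (chr5:78191696-78198141, 8574 bp from Fkbp15) was at 1.09 to 3.70 TPM (median 2.46) in saline-sired libraries and 0 to 1.06 TPM (median 0.381) in morphine-sired, the only member without overlap. Its log2 difference was -1.24 ± 0.26 (SE). MSTRG.14622, in an intron of the class I histocompatibility gene RT1-CE1, was at 1.86 to 9.60 TPM (median 5.61) and 8.06 to 30.0 TPM (median 17.7), a log2 difference of 1.45 ± 0.37 (SE). Such genes have many near-identical copies, so its reads are uncertain, and with the locus that shares its exon bases on the other strand added the difference was 0.87. MSTRG.25659, with 5 exons on an unplaced sequence, was at 0.527 to 3.96 TPM (median 2.52) and 3.28 to 8.96 TPM (median 6.92), a log2 difference of 1.21 ± 0.28 (SE).

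MSTRG.15709 was the most abundant of the 10. It has 2 exons across from Scn1a, the voltage-gated sodium channel gene, and was at 48.1 to 57.7 TPM (median 56.4) in saline-sired and 27.6 to 53.8 TPM (median 38.4) in morphine-sired libraries. The log2 difference was -0.46 ± 0.14 (SE), and the ranges overlapped. Scn1a itself was at 48.2 to 66.1 TPM over all libraries, and with its locus added the difference was -0.25. The log2 differences of the other 6 were -0.78 for MSTRG.10265, -0.86 for MSTRG.11765, -0.81 for MSTRG.15823 beside Itprid2, -0.74 for MSTRG.21886, 0.77 for MSTRG.11356 across from Pcdhgb7, and 0.87 for MSTRG.20025.

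Without saline-sired 2 and morphine-sired 2, the libraries with most choroid plexus transcripts, 178 members had an unadjusted p under 0.05 and 2179 of all tested did. Without morphine-sired 2 alone the counts were 132 and 1477. No member passed the adjusted threshold in either case.

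**Figure D5:**
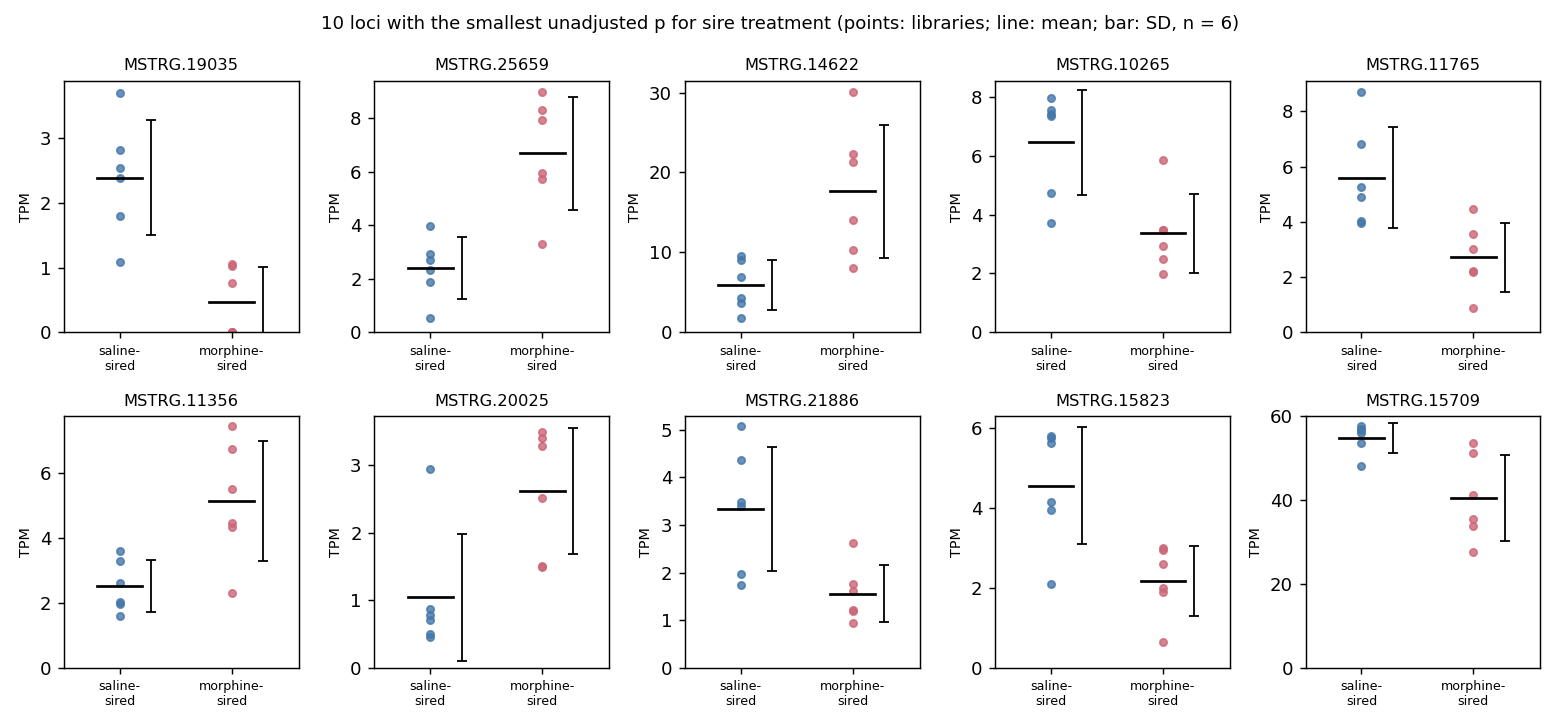
TPM of the 10 members with the smallest unadjusted p for sire treatment, 1 point per library, with the mean (line) and SD (bar, n = 6) of each group. MSTRG.19035 is the only one whose groups do not overlap, and none passed an adjusted p of 0.05.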

How the data were processed

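PolyA RNA of 12 libraries was measured, 6 rats in each group; libraries were numbered in accession order within groups. Sequencing reads were handled, per the submitters' processing notes, with StringTie 2.1.2 and DESeq2 1.28.1 after HISAT2 2.2.0 alignment to Rnor_6.0. The deposited transcript files name StringTie 1.3.6 in its estimation mode, per the file headers, and give coverage, FPKM and TPM of 76232 transcripts (35169 assembled). The header names a merged annotation with a label other than periaqueductal grey, and the libraries behind it are not stated. The assembled models may therefore come from libraries other than these 12. The table of the whole series was not used.

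TPM was summed per locus and symbol. limma 3.58.1 in R 4.3.3 (intensity trend, two-sided, Benjamini-Hochberg adjusted, threshold 0.05) was run on log2(TPM + 1), which understates changes of low loci, over the 24540 genes and loci whose mean reached 0.5 TPM. On simulated data with independent noise and 200 of all 24540 changed, it recovered 45% at 1.5-fold of TPM + 1, 72% at 2-fold and 96% at 4-fold. False calls numbered 4, 6 and 7. Recovery among the members, whose intervals were wider, was not simulated separately. Positions come from annotated transcripts of the same files, and gene order from RefSeq (GRCr8; 17165 of 24162 symbols matched). No genome of the build was used, so no member sequence is shown.

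Members, lists and tests were chosen with earlier results of these data known. Members named by rule are the 12 highest in TPM, the 10 with the smallest p, the 6 with the largest and 4 with the smallest spread, the 4 with most exons, the 4 longest, the 5 farthest from a gene, the 5 highest across from a gene and those nearest the threshold. Of the 12 highest, 1 is not reported here. All others, including the hosts, head-to-head, imprinted and RefSeq examples, were chosen after their values were seen. The genes that vary most like the 6 members with the largest spread are not given, since those values fall in separate clusters.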

Additional observations from a re-analysis of the deposited data

Results flagged for a closer look

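Among the named members and the share of TPM, 98 groups of 6 libraries were examined and 11 values stood apart from the other 5 of their group by Dixon's criterion at 95%, where chance flags about 1 in 20 groups. The count cannot be set against that rate, since some members were named for their spread or for a mean near the threshold.

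At loci that share exon bases with the other strand, MSTRG.23015 was at 794 TPM in morphine-sired 4 against 183 to 397 TPM in the others of its group. MSTRG.25836 was at 292 TPM in saline-sired 2 against 0.335 to 30.7 TPM, and at 34.4 TPM in morphine-sired 5 against 0 to 7.19 TPM. MSTRG.2601 was at 6.56 TPM in saline-sired 5 against 0 to 0.322 TPM, and at 4.62 TPM in morphine-sired 3 against 0.0117 to 0.312 TPM. MSTRG.13605 was at 2.56 TPM in morphine-sired 2 against 4.86 to 6.16 TPM.

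Of the others, MSTRG.20025 was at 2.94 TPM in saline-sired 1 against 0.460 to 0.870 TPM. MSTRG.7124 was at 8.24 TPM in saline-sired 2 against 1.34 to 2.59 TPM, and MSTRG.9280 at 3.48 TPM in morphine-sired 1 against 0 to 1.22 TPM. The steady loci MSTRG.10060 and MSTRG.20369 had narrow ranges: 74.4 TPM in saline-sired 3 against 65.5 to 66.6 TPM, and 30.2 TPM in morphine-sired 4 against 32.8 to 34.0 TPM.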

How the results depend on the processing

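No member was called by sire treatment in any of 23 other settings (pseudocount, filter, quantile scaling, FPKM, limma-voom on reads estimated from coverage, no trend, libraries left out, and the partner on the other strand added, the last chosen after seeing the data); the smallest adjusted p of a member ran from 0.307 to 1.00 and the number with an unadjusted p under 0.05 from 64 to 178. Of all genes, 0 to 1 were called with 1 library left out (MSTRG.1796 without saline-sired 4, MSTRG.3190 without saline-sired 6) and 1 without saline-sired 1 and 6 and morphine-sired 1; none of these is a member, and they were named after their values were seen. The 10 named differences kept their sign in these settings; that of MSTRG.19035 ran from -3.21 (limma-voom) to -0.75 (FPKM). The number of members was 1158 with FPKM in place of TPM and 652 with at least 3 exons, and 1307 to 1976 in the other settings. Their share of TPM was 2.78% with mitochondrial transcripts left out of the total. Members near an annotated gene were 260 within 1 kb and 1171 on either strand. The median spread was 0.371 to 0.382 with 1 library left out, 0.508 with a pseudocount of 0.1, 0.440 with 0.5 and 0.321 with the partner added. Where counts moved, fewer or more loci met the changed rule. No paired analysis was possible because the labels give no replicate numbers that groups share. The limit that depth sets on low loci was not tested.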
